A study of Homo sapiens with 2 samples.

Results

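The peaks described here were ChIP peaks of a dCas9-DNMT3A fusion that lay between protein-coding genes and carried a long match to 1 guide RNA (gRNA), T2 of the *uPA* (*PLAU*) set. A peak was included when the last 11 bases of T2, followed by an NGG protospacer adjacent motif (PAM), occurred on either strand within 70 bp of its summit, and when the summit lay outside every protein-coding gene and more than 2 kb from every protein-coding transcription start. Of the 7748 peaks on chromosomes 1 to 22 and X, 751 (9.69%) held such a match, and 393 of these 751 (52.3%) lay between genes. Another 345 lay inside protein-coding genes and 13 lay outside genes but within 2 kb of a start. The 393 peaks were 10.9% of the 3615 peaks between genes. The rule used only sequence and position, so the tag counts and enrichment of single peaks did not enter the choice. The paper, however, reported this same motif as the strongest one in peaks of its *uPA* ChIP experiment. Matched and unmatched peaks are therefore not compared independently of these data. "Between genes" refers to protein-coding genes alone, and 95 of the 393 summits (24.2%) lay in a long non-coding RNA gene.

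The cells were HEK293T, a transformed human embryonic kidney line. They received 500 ng of plasmid for dCas9-BFP-DNMT3A, which carries an HA tag, and 500 ng of plasmid for the *uPA* gRNAs T1 to T5 as a mixture of 5, and chromatin was taken for anti-HA immunoprecipitation after 48 hours. The labels list 1 ChIP sample and 1 input sample, whereas the methods speak of triplicates, and which of these the list stems from is not given in the sources used here. With a single ChIP sample there was no replicate check, and no difference was tested. Intervals below are 95% intervals (Wilson for shares, order statistics for medians, exact Poisson for tags) that cover counting error only. No ChIP with another gRNA or without a gRNA was analysed here, and a list of peaks cannot show the identity of the cells.

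Cas9 first recognises the PAM and then pairs its gRNA with DNA from the PAM outward, so that the bases next to the PAM, called the seed, carry most weight in binding. Catalytically dead Cas9 (dCas9) binds without cutting and can stay at sites that share only the seed with its gRNA. DNMT3A is a de novo methyltransferase that adds methyl groups to cytosines, chiefly in CpG dinucleotides, and its fusion to dCas9 carries that activity to where the gRNA leads.

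The gRNA and the sequences it met are shown first because the rule and all later comparisons turn on them. T2 is written below 5′ to 3′ with the 11 bases of the rule in capitals, from the sequence given with the study's methods.
T2 gRNA: gagccgggcGGGAGAGGGAG
The motif searched was GGGAGAGGGAGNGG, 14 bp long, on both strands, with N for any base. It holds only A and G apart from the free PAM base, and it repeats itself, since GGGAGA followed by GGGAG is 1 unit of 6 bases and most of the next. It occurred at 6819 places on the chromosomes used. The 4 most frequent sequences at these places are given next, each 23 bp long with the PAM, with the bases that match T2 without a break from the PAM, and the PAM, in capitals.
Frequent sequence 1: agagggagaGGGAGAGGGAGAGG
Frequent sequence 2: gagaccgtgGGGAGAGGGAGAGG
Frequent sequence 3: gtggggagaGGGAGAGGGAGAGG
Frequent sequence 4: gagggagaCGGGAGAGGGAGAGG
Frequent sequence 1, a run of the 6-base unit, made up 1834 of the 6819 genomic sites (26.9%). It occurred within 70 bp of the summit in 81 of the 393 peaks (20.6%) and in 123 of all 7748 peaks (1.59%). Frequent sequences 2 and 3 occurred at 454 and 296 genomic sites and in 33 and 32 of the 393 peaks. Frequent sequence 4, whose match to T2 is 1 base longer, occurred at 228 genomic sites and in 2 of the 393 peaks. Its sites fell in 26 loci between genes (sites at most 140 bp apart joined). Of these, 2 had a summit within 70 bp of a T2 site (7.69%, 95% interval 2.14% to 24.1%). For frequent sequence 1 it was 83 of 390 loci (21.3%). The surroundings of these loci differed in how much of their sequence was unique in the genome. The median unique share was 46.1% for frequent sequence 4 and 68.4% for frequent sequence 1. The part of uniqueness in the lower share with a summit was not tested. Altogether 103 of the 393 peaks (26.2%) held at least 1 of the 4. At the other end, 229 peaks (58.3%) had a nearest site whose 23 bases occurred only once among the genomic sites, and the 393 nearest sites comprised 291 different sequences.

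The 10 peaks between genes with the highest fold enrichment over the input, ties ordered by score, are shown by their nearest site, because they give the range of sequences at the best enriched positions. Capitals mark the unbroken match and the PAM as before, and coordinates are hg19 and cover the site with its PAM. Each is named by the protein-coding gene with the nearest start, which says only where the peak lay, as no expression was measured here.
Site nearest TEX48, chr9:117448456-117448478, minus strand: gaaatgttgGGGAGAGGGAGTGG
Site nearest TGFBR3, chr1:92379296-92379318, plus strand: cattgggaCGGGAGAGGGAGGGG
Site nearest CYP26B1, chr2:72098849-72098871, plus strand: cccgagcGCGGGAGAGGGAGAGG
Site nearest ANP32B, chr9:100742400-100742422, minus strand: tgagacaagGGGAGAGGGAGAGG
Site nearest GRAMD2B, chr5:125394964-125394986, plus strand: tcaactgatGGGAGAGGGAGAGG
Site nearest EPAS1, chr2:46483640-46483662, minus strand: acagtgaagGGGAGAGGGAGAGG
Site nearest HAX1, chr1:154259385-154259407, minus strand: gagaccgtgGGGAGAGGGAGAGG
Site nearest PCF11, chr11:82843632-82843654, minus strand: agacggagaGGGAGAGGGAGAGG
Site nearest ZSWIM6, chr5:60891112-60891134, minus strand: aataaaatgGGGAGAGGGAGGGG
Site nearest DDX53, chrX:22976421-22976443, plus strand: tgtagatcaGGGAGAGGGAGGGG
Counted over all 20 bases, these 10 sites matched T2 at 11 to 16. Near *ANP32B*, which encodes an acidic nuclear phosphoprotein, and near *DDX53* only the 11 bases of the rule matched among the 20 of T2, and all 9 bases farther from the PAM differed. The site near *HAX1*, which encodes a mitochondrial anti-apoptotic protein, matched 16 of 20 and was frequent sequence 2. Its substitutions were C4A, G6C, G8T and C9G, where the T2 base comes first, the position is counted from 1 at the 5′ end of T2, and the base of the site comes last.

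The 393 peaks had higher fold enrichment than peaks without the match and lay close to the matched peaks inside genes. Their fold enrichment had a median of 5.94 (95% interval 5.71 to 6.01), ranged from 3 to 12.32, and had its middle part between quartiles of 5.01 and 7.21. The 345 peaks inside genes had a median of 6.02 (95% interval 5.90 to 6.31), a difference of -0.08. The 3222 peaks between genes without the match had a median of 3.72 (95% interval 3.66 to 3.75), and the median of all 7748 peaks was 3.86. The lower quartile of the 393 peaks, 5.01, thus stood above the upper quartile of the unmatched peaks between genes, 4.21. A fold enrichment of at least 5 was seen in 297 of the 393 peaks (75.6%), in 75.9% of those inside genes and in 6.77% of those between genes without the match, against 14.0% of all peaks. A MACS *P* value of 1e-05 or smaller was reached by 227 of the 393 (57.8%, 95% interval 52.8% to 62.5%), by 57.4% inside genes and by 11.3% between genes without the match, against 15.8% of all peaks. Among the 100 peaks of the list with the highest fold enrichment, 35 were of this kind, against 393 of all 7748. High values were not particular to peaks between genes, as matched peaks inside genes reached 13.34.

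**Figure D1:**
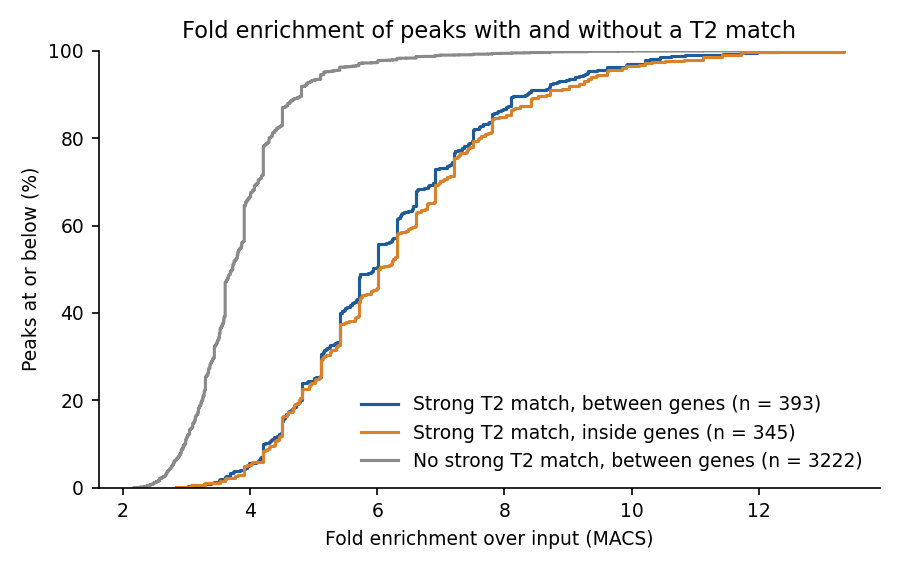
Cumulative share of peaks (vertical axis, percent) at or below each fold enrichment over the input (horizontal axis) for the 393 matched peaks between genes, the 345 matched peaks inside genes and the 3222 unmatched peaks between genes. Both matched curves run close together, with medians of 5.94 and 6.02, to the right of the unmatched curve, whose median is 3.72.

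Enrichment and tag number were different measures. The 393 peaks held a median of 39 tags (95% interval 36 to 41, range 17 to 314), the same median as inside genes, against 33 for unmatched peaks between genes and 34 for all peaks. Their median length was 920 bp, against 903 bp for unmatched peaks between genes. The false discovery rate (FDR) that MACS gave was 100% for 158 of the 393 (40.2%) and for 86.4% of the unmatched peaks between genes, and the lowest FDR among the 393 was 13.85%. The peak at *PLAU*, the gene the gRNAs were designed for, is set beside them for scale. It held 62 tags with a fold enrichment of 4.21 and a score (-10 times the log10 of the *P* value) of 89.57, its summit lay inside the gene, and no T2 match lay within 70 bp of the summit. The paper places the T2 target in the *uPA* promoter, so this last point concerns only the distance from the summit. Of the 393 peaks, 354 (90.1%) exceeded the *PLAU* peak in fold enrichment, 73 (18.6%) in tags and 68 (17.3%) in score. Its fold enrichment lay between the quartiles of all peaks, 3.35 and 4.46. The lower quartile of the matched peaks inside genes, 5.09, stood above it too. Among the 393 peaks, the FDR did not fall steadily as the score rose. It was 100% also at the peaks nearest *TGFBR3* and *ANP32B*, which had scores of 286.69 and 236.4. The counts at an FDR of 100% thus mix weak and strong peaks.

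The best enriched peak lay 3997 bp from a start of *TEX48* on chromosome 9, with 66 tags (95% interval 51.0 to 84.0) and a fold enrichment of 12.32. The next lay 7374 bp from a start of *TGFBR3*, which encodes the TGF-β co-receptor betaglycan, with 141 tags (95% interval 119 to 166) and a fold enrichment of 11.97. Its score of 286.69 was the highest of the 393, yet its FDR was 100%. *TGFBR3* was a target gene in other experiments of the study, but the label of this sample names *uPA* gRNAs alone, and the site there matched the last 12 bases of T2. The next after it lay 271335 bp from *CYP26B1*, which encodes an enzyme that breaks down retinoic acid, with 55 tags and a fold enrichment of 11.72. These 3 peaks had 1 T2 site each, at 6.5, 45.5 and 13.5 bp from the summit.

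The other 7 of the first 10 ranged in fold enrichment from 10.21 to 11.44. The peak near *ANP32B* (11.44, 92 tags) lay 3242 bp from the start, whereas the peak nearest *GRAMD2B* (10.84, 60 tags) lay 300795 bp away. The peak nearest *EPAS1*, which encodes the hypoxia-inducible factor HIF-2α, reached 10.62 with 61 tags at 40904 bp. Those nearest *HAX1* (10.44), *PCF11*, whose product acts in transcript cleavage and termination (10.28), *ZSWIM6* (10.21) and *DDX53* (10.21) held between 43 and 63 tags. Peaks nearest *DAZAP2* and *DUSP22* also reached 10.21 and were placed after these by their smaller scores of 94.07 and 113.41. Of the 10 peaks, 8 had a single T2 site, that near *HAX1* had 2 and that near *PCF11* had 3. The 3 peaks of lowest fold enrichment are shown for contrast.
Site nearest AASDHPPT, chr11:106366393-106366415, plus strand: agaaggtgaGGGAGAGGGAGAGG
Site nearest RFPL4B, chr6:112850414-112850436, plus strand: aaagggagaGGGAGAGGGAGAGG
Site nearest RPRD1A, chr18:33658649-33658671, plus strand: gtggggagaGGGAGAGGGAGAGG
They had fold enrichments of 3, 3.02 and 3.27 with 35, 71 and 49 tags, all but the first above the median of 39. The first had its site 60.5 bp from the summit inside a run of 49 unbroken purines (A or G), and the second lay in a run of 59.

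Between genes, median fold enrichment stood higher at longer unbroken matches up to the 11 bases of the rule, and no higher beyond them. Peaks with at most 4 matched bases before an NGG within 70 bp of the summit (n = 2971) had a median of 3.64 (95% interval 3.61 to 3.69). The median was 4.21 at 5 to 7 bases (n = 131), 4.67 at 8 or 9 (n = 52) and 5.41 at 10 (n = 68, 95% interval 4.91 to 6.19), which is just outside the rule. At 11 bases it was 5.94 (n = 379), and at 12 or more it was 5.86 (n = 14, 95% interval 4.21 to 7.51). The share at *P* 1e-05 or smaller went from 9.39% at 4 bases or fewer through 48.5% at 10 to 58.0% at 11 and 50% at 12 or more. Those 14 peaks divided into 6 with 12 matched bases and 8 with 13, and none of the 393 had 14. Of the 345 peaks inside genes, 7 matched 12 bases and 0 matched 13.

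The 8 peaks with 13 matched bases had a median fold enrichment of 5.86 and ranged from 3.61 to 11.72. The sites of 6 of them are given below, because they are the closest seed matches to T2 among the 393 peaks, beside that near *CYP26B1* above. The remaining one, nearest *MTDH*, had 87 tags and a fold enrichment of 5.25 and is given without its sequence.
Site nearest DUSP16, chr12:12718332-12718354, minus strand: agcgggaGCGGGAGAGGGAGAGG
Site nearest CHGA, chr14:93379036-93379058, plus strand: ggagggaGCGGGAGAGGGAGCGG
Site nearest CHGA, chr14:93379054-93379076, plus strand: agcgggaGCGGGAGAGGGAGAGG
Site nearest INAFM2, chr15:40622570-40622592, minus strand: taccttcGCGGGAGAGGGAGGGG
Site nearest BDH1, chr3:197330083-197330105, plus strand: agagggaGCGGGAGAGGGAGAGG
Site nearest TNIP3, chr4:122159054-122159076, minus strand: agaggaaGCGGGAGAGGGAGAGG
Site nearest TNIP3, chr4:122159072-122159094, minus strand: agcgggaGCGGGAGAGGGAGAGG
Site nearest KLHL4, chrX:86288980-86289002, plus strand: agtgggaGCGGGAGAGGGAGAGG
The peaks nearest *CHGA* and *TNIP3* held such sites in a pair. The peak nearest *CHGA*, the gene of chromogranin A, held 6 T2 sites and had the lowest value, 3.61. The peak nearest *DUSP16*, which encodes a MAP kinase phosphatase, reached 7.51 with 1 site. The others lay at 6.61 (*KLHL4*), 6.01 (*INAFM2*), 5.71 (*BDH1*) and 4.32 (*TNIP3*). All 8 peaks held at least 3 CpG within 70 bp of the summit, and the peak nearest *CYP26B1* held 9. A match of 13 bases itself contains a CpG, so none of the 8 could have been without one.

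At the 9 bases the rule left free, the nearest sites departed from T2 more often at some positions than at others. Position 9 is the base next to the required 11. There C9A was found in 230 of the 393 peaks (58.5%), C9G in 101 and C9T in 50, while 12 (3.05%) kept the C. The background was 610 loci between genes with a single site and surroundings unique in the genome. Of these, 19 had C at position 9, 290 had A, 197 had G and 104 had T. The rarity of C there was thus not particular to the peaks. No such background is given for the other free positions. At positions 4 and 5, where T2 has C, C4G stood in 209 and C5G in 212. At positions 6 and 8, where T2 has G, the base matched in 227 (57.8%) and 217 (55.2%). Counted over all 20 bases, the number matched ran from 11 to 17 and was 13 in 156 peaks. Median fold enrichment was 6.55 at 11 matched bases (n = 16), 6.25 at 12 (n = 52), 5.71 at 13 (n = 156), and 6.01 at each of 14, 15 and 16 (n = 86, 55 and 25).

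The PAM of the nearest site was AGG in 274 of the 393 peaks (69.7%, 95% interval 65.0% to 74.1%), GGG in 70 (17.8%), TGG in 44 (11.2%) and CGG in 5 (1.27%). Inside genes AGG was the PAM in 61.4%. The 6-base repeat carries an AGG, and among the 254 peaks with a single site the share with AGG was 55.5%. Of the 610 loci with 1 site and surroundings found once in the genome, 330 had AGG. Of the 220 of them with a summit, 112 had AGG, so a high share of AGG was not particular to the peaks. Median fold enrichment was 6.78 for TGG (95% interval 6.01 to 7.51), 5.73 for AGG (5.71 to 6.14), 5.71 for GGG (5.41 to 6.25) and 5.41 for CGG (range 3.61 to 7.81). The peaks with TGG were also lower in GC content, with a median of 44.5% within 150 bp of the summit against 49.2% for AGG, and the part of GC content in this difference was not tested.

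More than 1 T2 site in the window was common between genes. There were 139 of the 393 peaks (35.4%, 95% interval 30.8% to 40.2%) with at least 2 sites and 50 (12.7%) with at least 4, whereas inside genes 20.3% (95% interval 16.4% to 24.8%) had at least 2 and 6.09% at least 4. The intervals for at least 2 sites do not overlap, but no test was made. Genomic loci, with sites joined as above, give the background. At least 2 sites were found in 687 of 1576 loci between genes and in 494 of 1485 inside genes. The higher share between genes was thus not particular to the peaks. Between genes, 20.96% of these 687 loci had a summit, against 28.01% of the 889 loci with 1 site. Inside genes the shares were 14.8% and 27.4%. More sites did not go with more enrichment. The median fold enrichment was 6.01 (95% interval 5.91 to 6.36) with 1 site, 5.52 (5.11 to 5.71) with at least 2 and 5.11 (4.66 to 5.11) with at least 4. Median tags were 42, 32 and 30.5. Inside genes the medians were 6.31 with 1 site and 5.33 with at least 2.

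**Figure D2:**
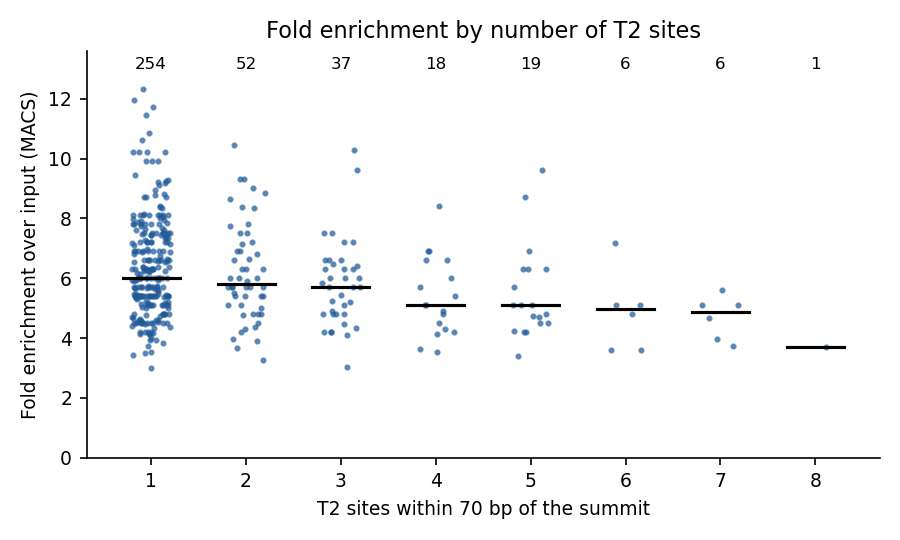
Fold enrichment over the input (vertical axis) of each of the 393 peaks by the number of T2 sites within 70 bp of its summit (horizontal axis). Points are peaks with a small sideways scatter, bars are medians, and the numbers above give peaks per column. The 254 peaks with 1 site reach up to 12.32, and the single peak with 8 sites stands at 3.69.

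The peaks with most sites were 1 with 8 sites and 6 with 7. The peak nearest *CACHD1*, with 8 sites in a run of 82 purines, had 63 tags and a fold enrichment of 3.69. The 6 with 7 sites lay nearest *HDGFL1* (5.61), *NBPF6* (5.11), *PRPF8*, which encodes a core splicing factor (5.11), *AFTPH* (4.66), *FRAS1* (3.98) and *UBE2U* (3.74). At the peaks nearest *CACHD1*, *HDGFL1*, *NBPF6*, *PRPF8* and *AFTPH* the nearest site was frequent sequence 1. Reads that map to more than 1 place were left out by the authors, and the part of this step in the lower values was not tested. The median fold enrichment was 6.01 where the purine run through the nearest site was at most 20 bases (n = 185), 6.01 at 21 to 40 bases (n = 137) and 5.11 above 40 (n = 71).

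Summits lay close to the sites. The centre of the nearest 14-bp match was a median of 10.5 bp from the summit (95% interval 9.5 to 12.5), within 10 bp in 187 peaks (47.6%), within 20 bp in 303 (77.1%) and within 35 bp in 366 (93.1%). The largest distance was 62.5 bp, in the peaks nearest *NEIL3*, *PLXNA1* and *CYP2F1*, just inside the limit of the rule, which had fold enrichments of 4.35, 7.81 and 5.41 with the far end of the match 69 bp from the summit. Just outside it, at 72 and 74 bp, peaks nearest *VPS26C* and *GFPT2* had fold enrichments of 3.91 and 6.91. A further 60 peaks between genes held a whole site in the peak but none within 70 bp, with a median fold enrichment of 5.07. The summit was on the PAM side of the centre in 234 of the 393 peaks and on the other side in 159, with a median offset of 2.5 bp toward the PAM. T2 read on the plus strand in 181 peaks (46.1%).

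**Figure D3:**
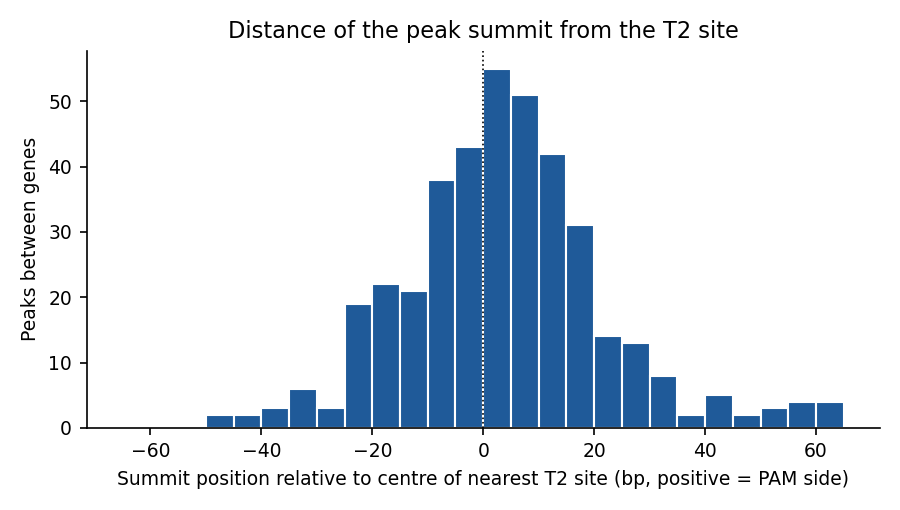
Number of the 393 peaks (vertical axis) by the position of the summit relative to the centre of the nearest T2 match (horizontal axis, bp, in bins of 5 bp), positive toward the PAM. Most summits lie within 20 bp of the match, 303 of 393, with 234 on the PAM side.

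To see how many T2 sites went without a peak, all genomic matches of the same kind were grouped into loci, joining sites at most 140 bp apart. Between genes there were 1576 loci, of which 393 (24.9%, 95% interval 22.9% to 27.1%) had a summit within 70 bp of a site, and inside genes 345 of 1485 (23.2%) did, a difference of 1.70 percentage points. The share moved with how far the surroundings were unique in the genome, and the authors used only reads mapped to 1 place. Where at most 50% of the 49-base sequences around the locus occurred once in the genome, 5 of 150 loci (3.33%) had a summit. The share was 16.8% of 363 loci above 50% and up to 75%, 23.4% of 384 above 75%, and 34.9% of 679 loci (95% interval 31.4% to 38.6%) where every such sequence was unique. Loci with 1 site and wholly unique surroundings are called single-copy loci below. Of these, 220 of 610 between genes (36.1%, 95% interval 32.4% to 39.95%) had a summit, and 249 of 738 (33.7%) inside genes.

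Single-copy loci in surroundings of low GC content had a summit in a larger share than those of high GC content. Between genes the share was 62.0% (49 of 79, 95% interval 51.0% to 71.9%) at a GC content up to 40%, 48.6% at 40 to 45%, 39.4% at 45 to 50%, 31.97% at 50 to 55%, 18.8% at 55 to 60% and 6.94% (5 of 72, 95% interval 3.003% to 15.2%) above 60%. Inside genes the shares ran from 56.8% through 60%, 42.6%, 33.1% and 25.7% to 5.66%. Loci with a summit had a median GC content of 45.2% and those without had 51.2%. The 393 peaks themselves had a median GC content of 48.5%, against 39.2% of unmatched peaks between genes, in a window that includes the match itself.

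**Figure D4:**
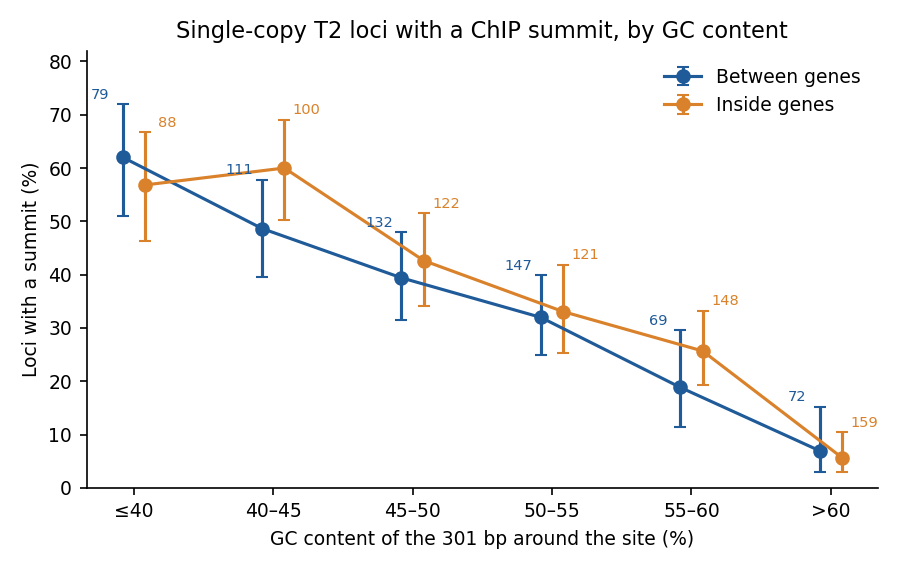
Share of single-copy T2 loci with a ChIP summit within 70 bp (vertical axis, percent) by the GC content within 150 bp of the locus centre (horizontal axis, percent), between and inside genes. Bars are 95% Wilson intervals and the small numbers count loci. Between genes the share goes from 62.0% in the lowest to 6.94% in the highest class.

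Between genes the share was lower at longer purine runs. It was 44.03% (95% interval 38.9% to 49.3%) of 352 loci with a run of at most 20 bases, 32.1% of 165 loci at 21 to 40 bases and 12.9% (95% interval 7.54% to 21.2%) of 93 loci above 40. The order was the same on both sides of a GC content of 50%, with 55.4%, 46.0% and 19.05% up to it and 30.2%, 16.7% and 7.84% above it. Inside genes the shares were 35.6%, 37.9% and 14.1%, so that only the longest runs stood lower there. By PAM, the share was 47.7% of 86 loci with TGG (95% interval 37.4% to 58.1%), 35.6% of 177 with GGG, 33.9% of 330 with AGG and 23.5% of 17 with CGG. The intervals of these 4 PAMs overlap. Up to a GC content of 50% the shares were 60.8% with TGG, 52.5% with GGG and 43.1% with AGG, and above it they were 28.6%, 21.6% and 21.8%. At position 9 of the site, T gave 45.2% of 104 loci, A gave 34.8% and G gave 34.5%.

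**Figure D5:**
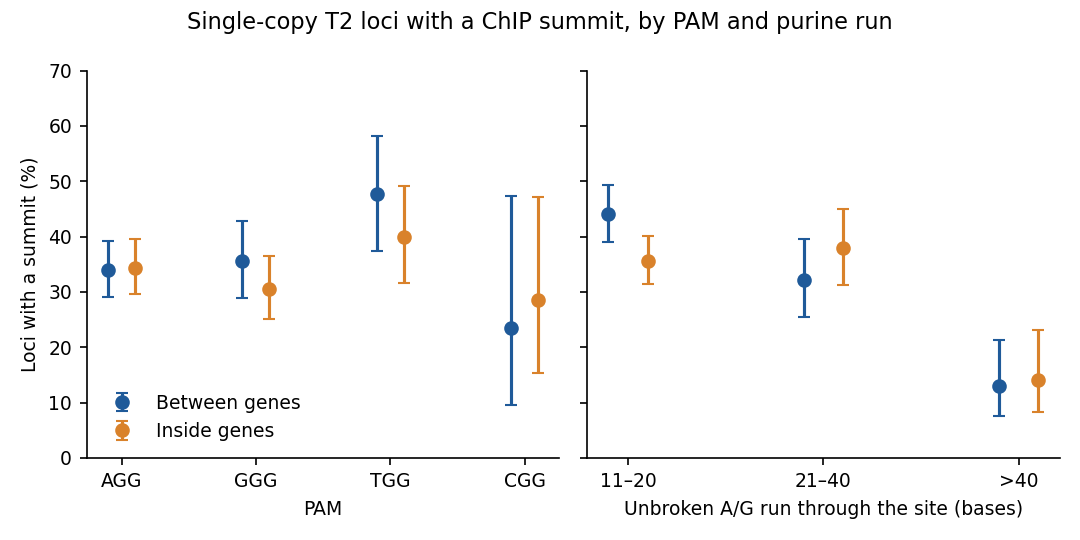
Share of single-copy T2 loci with a ChIP summit within 70 bp (vertical axis, percent) by PAM (left) and by the length of the unbroken purine run through the site in bases (right), between and inside genes, with 95% Wilson intervals. Between genes the share is 44.03% at runs of at most 20 bases and 12.9% above 40.

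The share did not rise steadily with a closer match to T2, and the classes of long matches held few loci. Of single-copy loci between genes, 216 of 591 with 11 matched bases (36.5%) and 4 of 19 with 12 or more (21.1%, 95% interval 8.51% to 43.3%) had a summit. Among all 1576 loci, the share was 25.4% at 11 bases, 10.7% (6 of 56) at 12, 36.4% (8 of 22, 95% interval 19.7% to 57.0%) at 13 and 0 of 5 above 13. Inside genes 0 of 18 loci at 13 bases had a summit. Single-copy loci inside genes that had no summit matched T2 at up to 20 of 20 bases. Only summits within 70 bp of a site were counted, so a locus without one may still lie in a peak. Over all 20 bases, 44.4% of 135 single-copy loci with 11 or 12 matches, 40.1% of 187 with 13, 29.8% of 171 with 14 and 29.1% of 117 with 15 or more had a summit. The last 3 groups lay at 20%, 19.8% and 20% where GC content was above 50%, and loci with 11 or 12 matches lay at 34.6% there. Up to a GC content of 50% the order was different, with 50.6% at 11 or 12 matches, 52.1% at 13, 41.2% at 14 and 45.2% at 15 or more.

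CpG sites are the substrate of DNMT3A. Within 70 bp of the summit 114 peaks (29.01%, 95% interval 24.7% to 33.7%) had no CpG, 188 (47.8%) had 1 or 2, and 32 (8.14%) had at least 5. Inside genes 29.6% had none and 4.93% at least 5. Within 150 bp of the summit the median was 3 CpG, with a range of 0 to 14, against a median of 2 for unmatched peaks between genes and for all peaks. Among single-copy loci between genes, 42.3% of those with 1 or 2 CpG within 150 bp and 22.1% of those with 6 or more had a summit, and the shares were 50.3% of 177 and 33.3% of 15 up to a GC content of 50%, and 21.7% of 69 and 20.2% of 89 above it. Methylation was not measured in this list.

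The distance to the nearest protein-coding start had a median of 51605 bp (95% interval 41624 to 63969) and reached from 2127 to 1487914 bp. There were 53 peaks within 10 kb, 139 at 10 to 50 kb, 119 at 50 to 200 kb and 82 farther, 7 of them beyond 1 Mb. Just inside the limit of 2 kb, peaks lay 2127 bp from *SOBP* (fold enrichment 8.11) and 2229 bp from *BATF2* (7.81), and just outside it, matched peaks lay 1943 bp from *MS4A12* (4.81) and 1930 bp from *DNAJC13* (6.45). The summit lay upstream of the nearest start in 258 peaks (65.6%). The rule leaves out summits inside genes, and so many positions downstream of a start, and this share shows no preference for either side. The share of single-copy loci with a summit was 38.3% within 10 kb of a start, 40.2% at 10 to 50 kb, 34.95% at 50 to 200 kb and 32.8% beyond, with overlapping intervals. The 3 most distant peaks are shown because they lay in long stretches without a protein-coding start.
Site nearest LRRTM3, chr10:67197876-67197898, minus strand: cctggataaGGGAGAGGGAGTGG
Site nearest CADM2, chr3:83794276-83794298, minus strand: gggaggttgGGGAGAGGGAGAGG
Site nearest NSUN3, chr3:94917357-94917379, minus strand: ctgtttacaGGGAGAGGGAGAGG
They had fold enrichments of 8.1 (*LRRTM3*, which encodes a synaptic adhesion protein), 6.61 (*CADM2*, a cell adhesion molecule) and 5.93 (*NSUN3*, a mitochondrial tRNA methyltransferase), with 45, 33 and 56 tags. At the first the 9 bases outside the rule all differed from T2.

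The 393 peaks were spread over all 23 chromosomes. There were 38 on chromosome 1, 36 on chromosome 2 and 35 on chromosome 6, and 2 on chromosome 21. Per Mb, chromosome 19 had most, 0.233, and 13 of its 63 peaks (20.6%) were of this kind, against 3.65% of the 1042 peaks on chromosome 1. The share of single-copy loci with a summit on chromosome 19 was 8 of 18 (44.4%, 95% interval 24.6% to 66.3%) and on chromosome 1 it was 16 of 41 (39.0%, 95% interval 25.7% to 54.3%). Only 28 of the 393 peaks (7.12%) lay closer than 100 kb to another, and they had 375 different nearest genes. In annotation, 290 (73.8%) lay in no gene of any type, 8 in a pseudogene, and 3 in an exon of a long non-coding RNA.

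The other gRNAs of the mixture had no comparable match at these peaks. The last 8 bases of T1, T3, T4 or T5 followed by NGG were found within 70 bp of the summit, on either strand, in 0 of the 393 peaks, and in 2, 2, 6 and 8 of all 7748 peaks. The same search with T2 found 1014 of the 7748 peaks (13.1%). The count of 0 says that these letters are not in the windows, not that the gRNAs were absent from the cells.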

How the data were processed

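ChIP-seq with an anti-HA antibody was analysed for 1 ChIP sample with 1 input sample. According to the methods, the authors aligned reads to hg19 with SOAP2, kept equal numbers of uniquely placed reads and ran MACS 1.4.2 at *P* 0.001. Common peaks of triplicates were selected and peaks in repeats removed, but the header does not show whether this was done to the list used. With 7757 peaks, the list was far larger than the set of enriched peaks that the paper reports. It was therefore not that set, and most of its peaks lie outside it. The header gives 62723055 ChIP and 62723050 input tags, 44934315 and 46375481 after duplicates. The deposited tag counts are raw and whole, the deposited fold enrichment is a ratio to local background, the deposited FDR is a percent, and the deposited score is -10 log10 of *P*. Peak positions were deposited in bp.

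From these files, sites were found in GRCh37 and placed by GENCODE 44 genes mapped to it, with Python 3.11.15, numpy 2.4.6, scipy 1.17.1 and pandas 2.3.3. The site search and the count of 49-base sequences were tested on simulated data. Uniqueness was exact and taken up to 100 bp on each side, whereas SOAP2 allowed mismatches. The 9 peaks on Y or other contigs were left out. Peaks named were the 10 of highest fold enrichment (ties by score), the 5 with most sites (ties by fold enrichment), those matching 13 or more bases, the 3 lowest, the 3 farthest from a start, those next to each limit of the rule, and the *PLAU* peak. The peaks nearest *DAZAP2*, *DUSP22*, *FRAS1*, *UBE2U* and *CYP2F1* were added after their values were seen, because they tied with peaks of this rule. The peaks and comparisons were chosen with earlier results of these data known. No test was run, as there was 1 ChIP sample. Alternatives changed the *P* limit, the window, the match length, the annotation, the summit, the joining of peaks or loci, the site chosen, uniqueness and the CpG window.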

Additional observations from a re-analysis of the deposited data

How the results depend on the processing

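No paired analysis was possible because there was 1 ChIP sample. Of 125 values under 17 alternatives, all but 24 stayed within 1.5 times the count of peaks or inside the 95% interval. With only peaks at *P* 1e-05 or smaller, 227 peaks remained with a median fold enrichment of 6.91, a share at that *P* of 100%, and 14.4% of loci between genes with a summit. That share of loci was 22.1% with sites within 35 bp, 28.7% with sites anywhere in the peak (median distance then 13.5 bp), 19.4% with 10 matched bases, and 27.2% for loci at least 50% unique. With 12 matched bases, 14 peaks remained, 7.89 percentage points separated loci between and inside genes (16.9% between genes), the difference in median fold enrichment was -1.05, and the shares were 50% at *P* 1e-05 or smaller, 28.6% with at least 2 sites, 78.6% with AGG and 0% without CpG. That 0% was fixed by the choice, because a match of 12 bases itself contains a CpG. Outside genes of any type, 22.99% of peaks had no CpG. Of all 393 peaks, 9.41% had none within 150 bp. For 2 alternatives chosen after seeing the data, the share of loci was 34.9% for wholly unique loci and 28.01% with 1 site, where 55.5% of peaks had AGG, 37.01% had no CpG and the median distance was 13 bp. The cause was not tested where a choice of peaks did not itself fix the change. The list carries no input tags, holds no peak under 17 tags and does not mark repeats, so a locus without a summit may have been bound below this limit or removed from the list.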
